A study of Mus musculus with 5 samples.

Results

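The genes described here mark retinal progenitor cells: the transcription factors Pax6, Rax, Lhx2, Six3, Six6, Nr2e1 and Meis1, the secreted growth factor Fgf15 and the small protein Dapl1. They were chosen by name, with earlier results of these data known. All 9 symbols matched 1 Ensembl gene each among the 43432 gene IDs of the deposited count table. The table holds poly(A) RNA from mouse retinas at postnatal day 7, with 3 control libraries, named a to c here, and 2 labelled Mettl14 cko, named cko a and cko b. Control and cko retinas share age and tissue; strain, allele and driver line are not given in the labels, and cko commonly stands for conditional knockout. The deposited table's name carries the symbol Six3, which the labels do not explain and which is also the symbol of a gene described below. The series title names Mettl3 beside Mettl14, and the labels do not say whether Mettl3 was altered as well, so the genotype behind cko is not settled here. Nothing says that the libraries came from separate animals, so the p-values may cover technical spread alone.

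Pax6, Rax, Six3, Six6 and Lhx2 belong to the network of homeodomain proteins that sets up the eye field in the early embryo, and most of them stay on in dividing retinal progenitors. Progenitors in the mouse retina produce neurons first and Muller glia last, and around the age studied here neurogenesis is ending. Several of the genes then remain in mature cells: Pax6 in amacrine, ganglion and horizontal cells, Six3 and Six6 in inner retinal neurons, and Lhx2 and Rax in Muller glia. A level in whole retina therefore sums progenitors and these later cell types, and fewer cells of a type cannot be told apart from less RNA per cell.

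Total counts were 24315693 to 27100918 per library, and all 9 genes passed the low-count filter, as 17039 genes did in all. Mettl14, the gene named in the label, was at 41.5, 46.7 and 38.7 CPM (counts relative to each library's total after TMM scaling) in the respective controls a, b and c, against 55.6 CPM in cko a and 44.8 CPM in cko b. It was not lower, so every direction below belongs to the libraries labelled cko and not to a measured loss of Mettl14; levels of single exons were not analysed here. Mettl3, its partner in the methylating complex, was at 72.4, 71.3 and 66.0 CPM in the controls and at 65.6 and 52.0 CPM in cko a and b, below every control in both (log2 -0.25, SE 0.19; edgeR adjusted p = 0.615). Lens crystallins were lower in both cko libraries: the summed level of the lens list was 1207 to 2692 CPM in the controls and 150.5 and 54.8 CPM in cko a and b.

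No progenitor identity gene differed between the groups at an adjusted p under 0.05 in edgeR's quasi-likelihood test. That is 0 of 9 against a background of 0.0998% of all genes tested (0.00587% higher and 0.0939% lower), and DESeq2 and limma-voom also called 0. At an unadjusted p under 0.05 there were 2 of 9, Pax6 higher and Dapl1 lower, against 10.8% of all genes (5.45% higher and 5.36% lower). The log2 fold change was above 0 for 6 genes and below 0 for 3, with a median of 0.05 beside -0.01 over all genes tested. Six3, Lhx2 and Nr2e1 were each more than 2-fold lower in cko a than in cko b. In all, 7 of the 9 genes were lower in cko a than in cko b, against 46.6% of all genes tested. The 7 include small log2 gaps, 0.0033 for Six6 and 0.14 for Dapl1. A gap at least as large was seen for 99.5% and 78.3% of all tested genes, respectively. Cko a was the lowest of the 5 libraries for 4 of the 9 (background 23.1%), and cko b was the highest for 4 (background 23.2%).

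**Figure D1:**
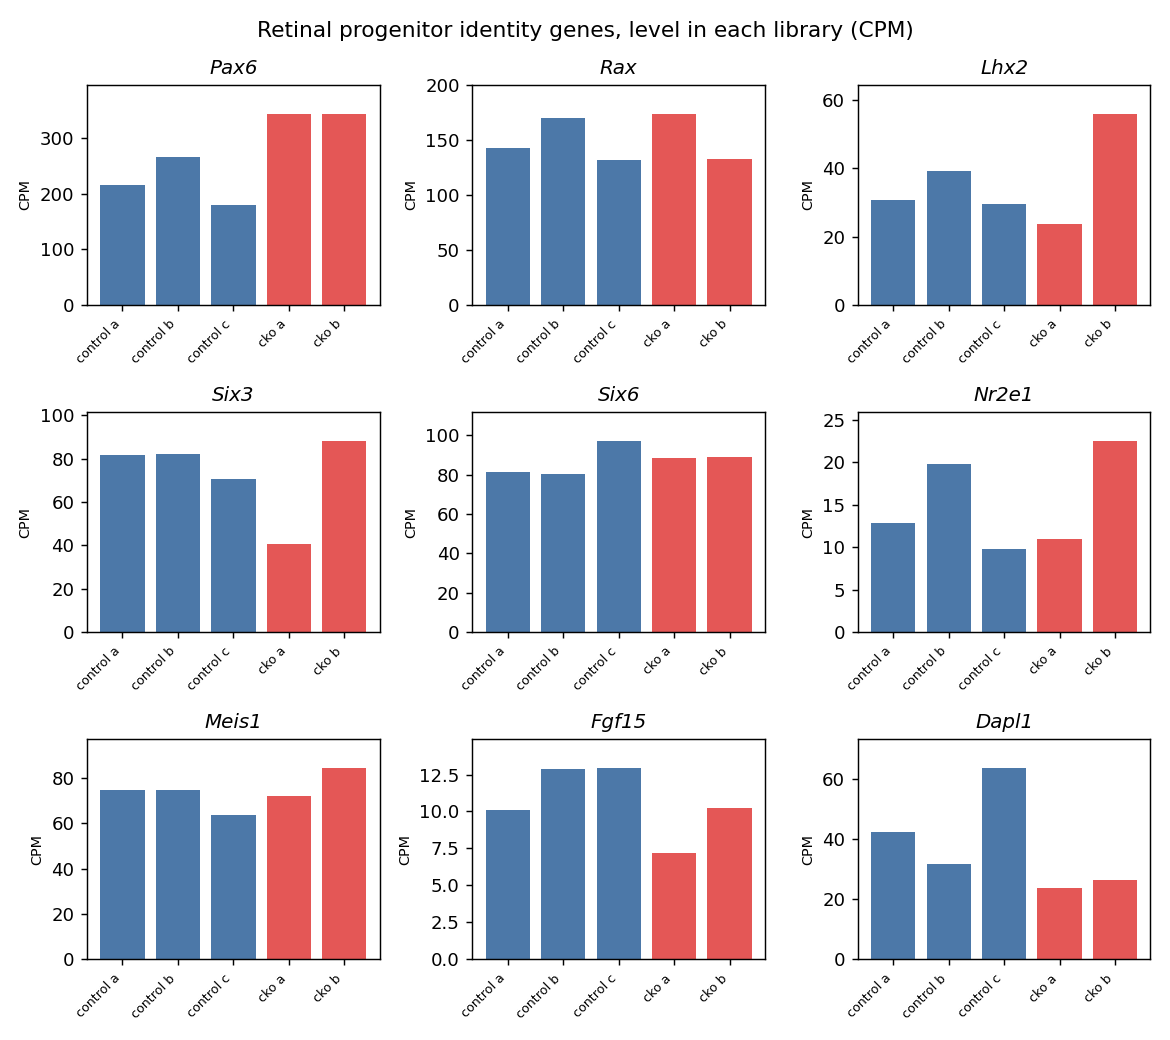
Level of each of the 9 genes in each library, in CPM on a linear axis from 0 (blue, controls; red, libraries labelled cko). Pax6 stands above and Dapl1 below every control in both cko libraries, while Six3, Lhx2 and Nr2e1 split between cko a and cko b.

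Levels of different genes were compared per kilobase of annotated exon. In the controls Dapl1 was the highest, at 67.8 CPM per kb ± 23.9 (SD, n = 3). Rax followed at 25.3 ± 3.32, Six6 at 21.6 ± 2.35, Pax6 at 18.9 ± 3.77 and Six3 at 14.4 ± 1.18 CPM per kb (SD, n = 3). Lhx2 was at 7.55 ± 1.21, Meis1 at 6.73 ± 0.615, Fgf15 at 3.92 ± 0.533 and Nr2e1 at 3.81 ± 1.38 CPM per kb (SD, n = 3). The control ranges of Rax and Six6, of Six6 and Pax6, of Lhx2 and Meis1, and of Fgf15 and Nr2e1 overlapped, so these neighbours in the order were not separated by the controls. The length used is the union of all annotated exons, 11694 bases for Pax6 and 10532 for Meis1 against 679 for Dapl1, which lowers the per-kilobase level of genes with many alternative exons.

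Pax6, a paired-box and homeodomain factor on which eye formation depends, was higher in both cko libraries. It was at 216, 267 and 179 CPM in control a, b and c, against 345 CPM in cko a and 344 CPM in cko b. Both cko libraries lay above every control and differed from each other by less than the controls did. The groups of 15.8% of all tested genes were separated in this direction, and Pax6 was the 1 of the 9 genes among them. Its log2 fold change was 0.64 (SE 0.21, 95% interval 0.18 to 1.10; edgeR adjusted p = 0.433). The gene lies on chromosome 2 from 105668900 to 105697364 on the plus strand (GRCm38, protein-coding). Pax6os1, annotated on the opposite strand across the start of Pax6, shares no exon base with it and had a log2 fold change of -0.12 (SE 0.27). Of the amacrine genes, another cell type that contains Pax6, Gad1, an enzyme of GABA synthesis, was at 41.9 to 77.3 CPM in the controls and at 93.8 and 111 CPM in cko a and b (log2 0.70). Calb2, a calcium-binding protein and the most abundant of these genes, was at 233 to 292 CPM in the controls and at 266 and 188 CPM in cko a and b (log2 -0.26), and the list's median log2 was 0.10. The summed level of the 11 amacrine genes was 742 to 871 CPM in the controls and 726 and 987 CPM in cko a and b, and its part in the Pax6 difference was not tested.

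The series title concerns the complex that methylates adenosine in messenger RNA, so transcripts were searched for GGACT, a frequent form of the sequence that the complex marks. No methylation was measured here, and a match is only a description of the letters. Among 14447 tested protein-coding genes, 91.9% had at least 1 match in the transcript with the longest coding sequence, with a median of 1.06 per kilobase. Pax6 held 7, or 2.44 per kilobase, a density that 5.70% of these genes reached. Six3 held 6 (2.11 per kilobase, reached by 9.91%), of which 5 lay after the stop codon. Meis1 held 5, Lhx2 4, Six6 and Fgf15 2 each, and Rax and Nr2e1 1 each. Dapl1 held 0 in 573 bases. The pair of matches nearest the end of the coding sequence of Pax6 and of Six3, of those whose window lies within 1 exon, is shown because these transcripts had the highest densities among the 9 genes; capitals mark GGACT, and each window has 25 bases on the plus strand of GRCm38.
Pax6, chr2:105696499-105696523: gcccgggaatGGACTagaaccaagg
Pax6, chr2:105696774-105696798: catagtttatGGACTgatgttccaa
Six3, chr17:85627835-85627859: acttctctgtGGACTgggggcttct
Six3, chr17:85627895-85627919: cccagtgccaGGACTttatatacct
These Pax6 windows begin their match 157 and 432 bases after the last coding base, and those of Six3 131 and 191 bases after it.

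Six3 and Six6 are related homeodomain factors of the sine oculis family. Six3, which keeps the early forebrain and eye field from taking another fate, was at 81.6, 82.1 and 70.7 CPM in control a, b and c, against 40.8 CPM in cko a and 88.2 CPM in cko b. The controls agreed within 1.16-fold, while cko b was 2.16-fold above cko a; cko a lay below every control and cko b above. An absolute difference between the cko libraries at least this large was seen for 6.87% of all tested genes. The groups overlapped, and the log2 fold change was -0.28 (SE 0.28, 95% interval -0.89 to 0.34; edgeR adjusted p = 0.707). It was -0.94 with cko a alone against the controls and 0.17 with cko b alone, so its direction rests on which library is kept. Six6, needed for progenitor proliferation and optic nerve formation, was at 81.3, 80.6 and 97.3 CPM in the controls and at 88.8 and 89.0 CPM in cko a and b. Both cko libraries lay inside the control range, and the log2 fold change was 0.04 (95% interval -0.37 to 0.45; edgeR adjusted p = 0.943).

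The Six3 locus on chromosome 17 (85613608 to 85629302, plus strand) also carries transcripts on the opposite strand, and these did not follow Six3 in cko a. Six3os1, a long noncoding RNA that starts near Six3 and is read the other way, had 2776, 3609 and 1941 reads in control a, b and c, against 2876 in cko a and 4424 in cko b. Its level was 113 CPM in cko a, inside the control range of 85.8 to 129 CPM, and 156 CPM in cko b, above it. Gm28528, a noncoding gene from 85619326 to 85621001 on the minus strand, had 30, 34 and 32 reads in the controls and 53 and 205 reads in cko a and b. Both cko libraries were above every control, at 2.09 and 7.23 CPM against 1.14 to 1.41 CPM. The log2 fold change of Gm28528 was 1.89 (SE 0.45; edgeR adjusted p = 0.354, and 0.0329 with DESeq2), 2.52 without cko a (adjusted p = 0.0235) and 0.73 without cko b (0.478). Gm28528 was singled out after its values had been seen. It shares 168 exon bases with Six3, and Six3os1 shares 106. The strand setting of the counting is not given, so reads of these genes and of Six3 cannot be told apart where they overlap.

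**Figure D2:**
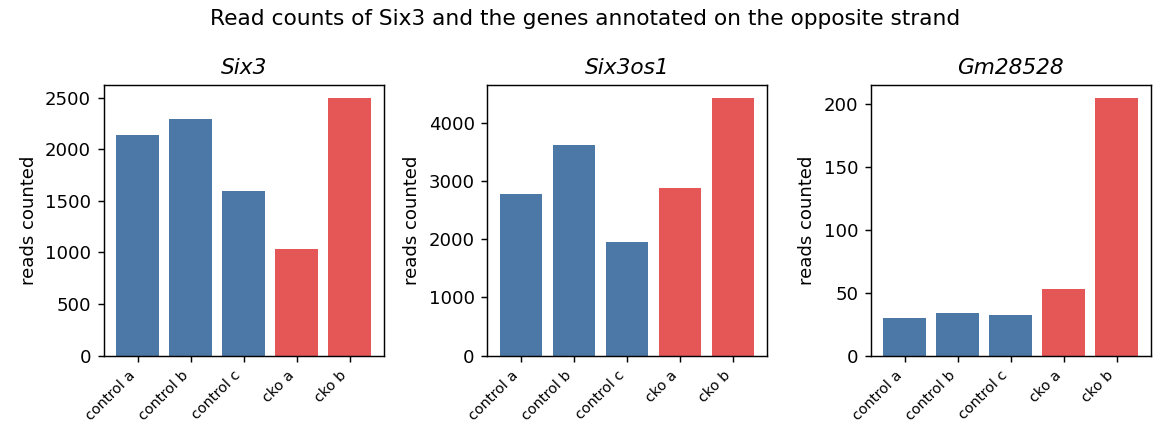
Read counts per library of Six3, Six3os1 and Gm28528, each on a linear axis from 0 (blue, controls; red, libraries labelled cko). Six3 is lowest in cko a at 1036 reads, while Gm28528 reaches 205 reads in cko b against 30 to 34 in the controls.

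The promoter windows of Six3, Six6 and Lhx2 are shown because Gm28528 spans that of Six3, Six6 is its relative with level values, and Lhx2 shared the split between the cko libraries. Each runs from 250 bases before to 50 after a RefSeq transcript start, 5′ to 3′ on the plus strand of GRCm38.p6; 7 of the 9 genes had such a window. Capitals mark CCAAT and GGGCGG, elements common in proximal promoters, on either strand, that is also ATTGG and CCGCCC; no marked matches overlap. The pair of elements was chosen after the sequences had been seen.
Six3, chr17:85620584-85620883: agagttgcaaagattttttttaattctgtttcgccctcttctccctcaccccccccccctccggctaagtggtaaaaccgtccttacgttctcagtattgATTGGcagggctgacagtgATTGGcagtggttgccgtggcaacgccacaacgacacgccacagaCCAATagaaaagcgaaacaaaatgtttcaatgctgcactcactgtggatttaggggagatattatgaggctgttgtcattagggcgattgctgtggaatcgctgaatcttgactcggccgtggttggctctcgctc
Six6, chr12:72939632-72939931: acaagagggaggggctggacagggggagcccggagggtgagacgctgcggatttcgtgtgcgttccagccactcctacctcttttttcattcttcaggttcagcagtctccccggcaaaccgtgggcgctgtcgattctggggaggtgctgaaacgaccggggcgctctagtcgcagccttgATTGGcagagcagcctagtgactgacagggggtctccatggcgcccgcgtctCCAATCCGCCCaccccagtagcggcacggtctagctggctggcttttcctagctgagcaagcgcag
Lhx2, chr2:38339031-38339330: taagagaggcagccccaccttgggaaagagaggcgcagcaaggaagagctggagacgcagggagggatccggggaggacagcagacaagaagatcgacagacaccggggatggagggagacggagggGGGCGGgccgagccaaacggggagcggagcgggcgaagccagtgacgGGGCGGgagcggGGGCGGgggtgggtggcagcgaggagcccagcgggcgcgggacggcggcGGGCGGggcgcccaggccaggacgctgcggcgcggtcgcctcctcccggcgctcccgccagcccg
Six3 had 3 CCAAT matches, Six6 had 2 with 1 GGGCGG match, and this Lhx2 start had 4 GGGCGG matches and 0 CCAAT matches, while the window of the second annotated Lhx2 start had 0 of either and 29 CpG pairs. Of 32851 mouse promoter windows of the same length, 37.4% held CCAAT and 35.7% held GGGCGG, and 3.37% held at least 3 CCAAT matches. TAATTA, a palindrome that many homeodomain proteins bind, was in 5.29% of all windows and in 0 of those of the 7 genes. The Lhx2 window shown had 34 CpG pairs, as many as or more than all but 7.73% of windows, and that of Six3 had 14.

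Lhx2, a LIM-homeodomain factor required for the optic vesicle and later for Muller glia, was split between the cko libraries in the same way as Six3. It was at 30.7, 39.2 and 29.6 CPM in the controls and at 23.7 and 56.0 CPM in cko a and b. Here too cko a lay below every control and cko b above; 6.98% of all tested genes had that arrangement, and Six3 and Lhx2 were the 2 of the 9 with it. Cko b was 2.37-fold above cko a, a gap that 5.16% of all tested genes reached in either direction, while the controls spanned 1.33-fold. Its log2 fold change was 0.27 (SE 0.32, 95% interval -0.43 to 0.96; edgeR adjusted p = 0.749); it was -0.49 without cko b and 0.76 without cko a. Nr2e1, the orphan nuclear receptor Tlx that keeps neural progenitors dividing, was at 12.8, 19.8 and 9.81 CPM in the controls and at 10.98 and 22.5 CPM in cko a and b. Its controls spanned 2.01-fold, close to the 2.05-fold between the cko libraries. The log2 fold change of Nr2e1 was 0.25 (SE 0.35; edgeR adjusted p = 0.793), and it was -0.36 without cko b and 0.67 without cko a.

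**Figure D3:**
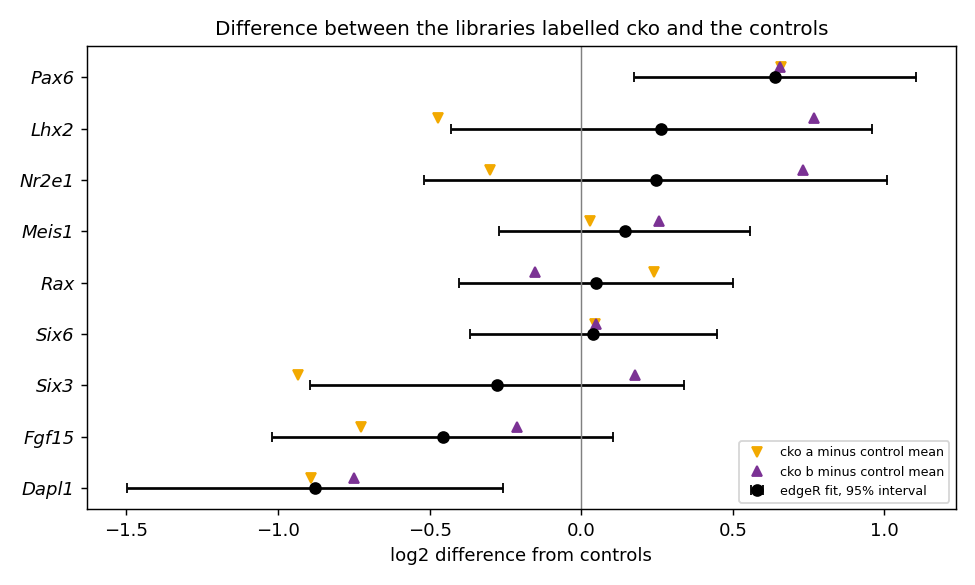
Log2 difference of each gene from the controls: circles with bars are the edgeR fold change of both cko libraries with its 95% interval, and triangles are cko a (orange, pointing down) and cko b (purple, pointing up) alone against the mean log2 level of the controls. The interval lies above 0 for Pax6 and below 0 for Dapl1 before any adjustment over genes, and the triangles lie on opposite sides of 0 for Lhx2, Nr2e1, Rax and Six3.

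Over all genes, the cko libraries also differed from each other with sequence composition; its part in the split of Six3, Lhx2 and Nr2e1 was not tested beyond the values given here. In the quintile of tested genes with the highest GC content, cko a had a median log2 difference from the control mean of -0.38 and cko b one of -0.09. In the quintile with the longest transcripts these were 0.10 and 0.27, and in the shortest -0.10 and -0.27. The controls differed by length too: controls a, b and c were at -0.02, 0.15 and -0.14 in the longest. They were at 0.02, -0.17 and 0.17 in the shortest, and at 0.06, -0.0041 and -0.04 in the quintile with the highest GC content. The longest transcript of Lhx2 is 58.5% GC, in the highest quintile, that of Six3 is 53.4%, and that of Nr2e1 is 50.7%, in the middle quintile. After a smooth trend on GC content and length was removed from each library, an alternative chosen after seeing the data, the log2 gap of cko b over cko a went from 1.11 to 0.83 for Six3. It went from 1.24 to 0.90 for Lhx2 and from 1.03 to 0.91 for Nr2e1. For Dapl1 it went from 0.14 to 0.52, for Fgf15 from 0.51 to 0.57 and for Rax from -0.39 to -0.52. For Pax6 it went from -0.0036 to -0.19, for Six6 from 0.0033 to 0.086 and for Meis1 from 0.22 to 0.12. The control range of Six3 on the same scale was then 0.04, that of Lhx2 0.42 and that of Nr2e1 0.88. With the trend removed 0 of the 9 genes were called, 2 had an unadjusted p under 0.05 (as did 2124 of all 17039 genes in that fit), and edgeR called 20 genes over the whole table against 17 without removal.

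**Figure D4:**
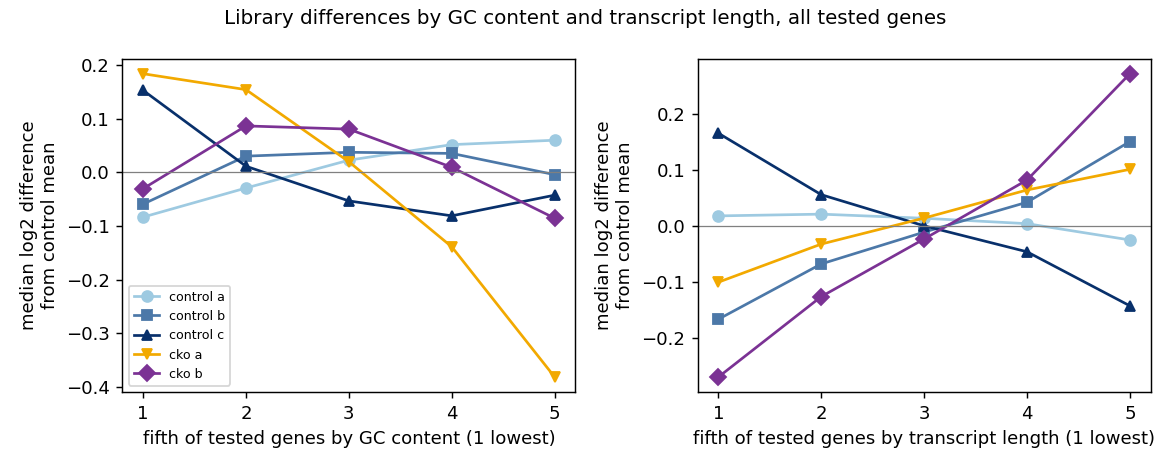
Median log2 difference of each library from the control mean over all tested genes, in quintiles by GC content (left) and by transcript length (right). Cko a lies at -0.38 in the quintile with the highest GC content, and cko b at 0.27 in the quintile with the longest transcripts. In the latter, control b lies at 0.15 and control c at -0.14.

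Rax and Meis1 showed no separation. Rax, a homeodomain factor without which the eye field does not form, was at 143, 170 and 132 CPM in the controls and at 174 and 132 CPM in cko a and b. Cko a was the highest of the 5 libraries and cko b lay at the low end of the controls, the opposite order to Six3 and Lhx2. Rax had a log2 fold change of 0.05 (SE 0.21, 95% interval -0.40 to 0.50; edgeR adjusted p = 0.939). Raxos1, on the opposite strand, overlaps 27.4% of the Rax exon length and was lower in both cko libraries, at 8.74 and 8.57 CPM against 10.2 to 10.7 CPM (log2 -0.29, SE 0.22; edgeR adjusted p = 0.621). With no strand setting given, reads of Raxos1 and Rax cannot be told apart where they overlap. Meis1, a homeodomain cofactor that holds progenitors in a proliferative state, was at 74.8, 74.5 and 63.4 CPM in the controls and at 72.2 and 84.4 CPM in cko a and b. Its log2 fold change was 0.14 (SE 0.19, 95% interval -0.27 to 0.56; edgeR adjusted p = 0.775).

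Fgf15, a secreted fibroblast growth factor of embryonic and early postnatal progenitors, was lowest in cko a. It was at 10.1, 12.9 and 12.95 CPM in the controls and at 7.16 and 10.3 CPM in cko a and b, or 265, 360 and 293 reads against 182 and 291. Cko b lay inside the control range, so the groups overlapped. Fgf15 had a log2 fold change of -0.46 (SE 0.26, 95% interval -1.02 to 0.10; edgeR adjusted p = 0.512), and it was -0.74 without cko b and -0.22 without cko a. Gm26793, on the opposite strand over 24.9% of the Fgf15 exon length, had 8, 15 and 17 reads in the controls and 3 and 8 in cko a and b. Where they overlap, reads of Gm26793 and Fgf15 cannot be told apart either, as the strand setting is not given. In the list of FGF receptors and feedback genes of the ERK pathway, 0 of 13 tested passed edgeR, DESeq2 or limma-voom. At an unadjusted p under 0.05 there were 3 of 13, all lower, against 5.36% of all genes in that direction. These were Spry1 (log2 -0.97, SE 0.35), Spry2 (-0.52) and Fgfr3 (-0.80), a pair of feedback inhibitors and a receptor. Spred1, the most abundant member, had a log2 value of -0.06. The list's median was -0.11, beside -0.01 over all genes, and -0.44 without cko b; 10 of the 13 genes were below every control in cko a, against 29.6% of all tested genes.

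Dapl1, a death-associated protein family relative found in late progenitors and in the pigment epithelium, where it restrains cell division in the mouse, was lower in both cko libraries. It was at 42.5, 31.9 and 63.8 CPM in control a, b and c, against 23.8 CPM in cko a and 26.3 CPM in cko b. Both cko libraries lay below every control, an arrangement seen for 13.7% of all tested genes and for Dapl1 alone of the 9. The log2 fold change was -0.88 (SE 0.28, 95% interval -1.50 to -0.26; edgeR adjusted p = 0.433). With no low-count filter it was called (log2 -0.89, adjusted p = 0.0446), in a fit that called 262 genes in all. It was -0.59 without control c, the highest library, and -1.08 without control b. Genes of the pigment epithelium were also lower: their summed level over 11 genes was 256, 287 and 585 CPM in control a, b and c, against 199 CPM in cko a and 178 CPM in cko b. Of these, 0 passed edgeR and 5 had an unadjusted p under 0.05, all lower, against 5.36% of all genes in that direction. DESeq2 called 1, beside 85 of 16195 genes over all, and limma-voom 0, beside 16 of 17039. None of the 11 was at 0 in all libraries, and control c was the highest for Dapl1 and for this sum; the part of pigment epithelium in the Dapl1 difference was not tested.

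Of the other progenitor genes, 18 of 20 were lower in cko a than in cko b, the order of Six3 and Lhx2, against 46.6% of all genes tested. The same order was seen for 10 of 11 amacrine genes, 11 of 13 genes of the FGF and ERK list and 12 of 16 proliferation genes. It was also seen for 5 of 6 horizontal cell genes, so it was not confined to progenitor lists. MEIS and PBX cofactors (6 of 8), the sine oculis, EYA and DACH list (6 of 9) and ciliary margin genes (5 of 7) mostly had it too. Less often it was seen for Muller glia (6 of 12), ganglion cell (5 of 9) and bipolar genes (3 of 10), LIM partners (4 of 8) and Nr2e1 corepressors (4 of 7). Pigment epithelium (2 of 11), astrocyte (1 of 5) and rod genes (0 of 8) mostly had the opposite order. Some lists share a gene: Tfap2a is an amacrine and a horizontal cell gene, and Isl1 a ganglion cell and a bipolar gene. Dkk3 is in the Muller glia list and among the other progenitor genes. The list of other progenitor genes holds 20 genes, among them Sox2, Hes1, Notch1, Ccnd1 and the NFI factors. EdgeR, DESeq2 and limma-voom called 0 of 20, and at an unadjusted p under 0.05 there were 3, against 10.8% of all genes. These were Nfib (log2 0.67, SE 0.25) and Hes1 (0.65), both higher, and Gas1 (-0.64), lower. Mab21l1, the most abundant, had a log2 value of 0.21. The median of the list was -0.07; it was -0.56 without cko b and 0.40 without cko a. In cko a 13 of the 20 lay below every control, and in cko b 12 of the 20 lay above, against 29.6% and 32.1% of all tested genes. Sox2, a factor that keeps progenitors uncommitted, was at 17.2, 17.2 and 17.0 CPM in the controls and at 5.91 and 21.2 CPM in cko a and b. Notch1, the receptor that holds progenitors undifferentiated, was at 103, 146 and 69.3 CPM in the controls and at 48.7 and 162 CPM in cko a and b. Sox2 and Notch1 were singled out for these values.

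The partners of these factors gave no call either. Of the sine oculis relatives of Six3 with their EYA and DACH cofactors, 0 of 9 tested passed edgeR, DESeq2 or limma-voom. Eya1 (log2 0.80, SE 0.31) and Dach2 (0.56) had an unadjusted p under 0.05, and Eya3, the most abundant, had a log2 value of 0.14. Of the MEIS and PBX cofactors 0 of 8 passed, with 1 at an unadjusted p under 0.05, Pknox2 (0.78, SE 0.34). In the list of Pax2 and the LIM-domain partners of Lhx2, 0 of 8 passed, and Ssbp4, a cofactor that binds the LIM adaptor Ldb1, had the smallest p (log2 -0.71, SE 0.21; edgeR adjusted p = 0.427), with Ssbp2, the most abundant, at -0.24. Among corepressors of Nr2e1 0 of 7 passed, with Hdac5 at -0.52 and Hdac2, the most abundant, at -0.20. DESeq2 and limma-voom also called 0 in the MEIS and PBX, LIM and corepressor lists. In each of the LIM and corepressor lists 1 member had an unadjusted p under 0.05. The share of all genes tested at that cutoff was 10.8%. Their medians were -0.02 for the sine oculis, EYA and DACH list, 0.14 for MEIS and PBX, -0.30 for the LIM partners and -0.09 for the Nr2e1 corepressors.

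Proliferation genes, which mark the cells still dividing, had a median log2 of -0.12, and 0 of 16 passed edgeR, DESeq2 or limma-voom. Of the 16, 6 had a log2 value above 0. At an unadjusted p under 0.05 there were 1 higher and 2 lower, against 5.45% and 5.36% of all genes. The median of this list was 0.0086 without cko a, -0.38 without cko b and 0.056 without control b. The member with the smallest p was Cdk1, the mitotic kinase (log2 -0.69, SE 0.28), and the most abundant was Mcm7 (-0.12). Muller glia genes had a median of -0.08, with Crym at -0.38 and Rlbp1 at -0.54. Horizontal cell genes had a median of 0.36, with Prox1 at 0.02 and Onecut2 at 0.77; this median was 0.70 without cko a and 0.0018 without cko b. In the amacrine list the median was 0.10, with Calb2 at -0.26 and Gad1 at 0.70; it was 0.52 without cko a and -0.42 without cko b. None of the 4 lists had a member called by edgeR, DESeq2 or limma-voom. In the order given, 3 of 16, 1 of 12, 0 of 6 and 2 of 11 members had an unadjusted p under 0.05, against 10.8% of all genes.

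**Figure D5:**
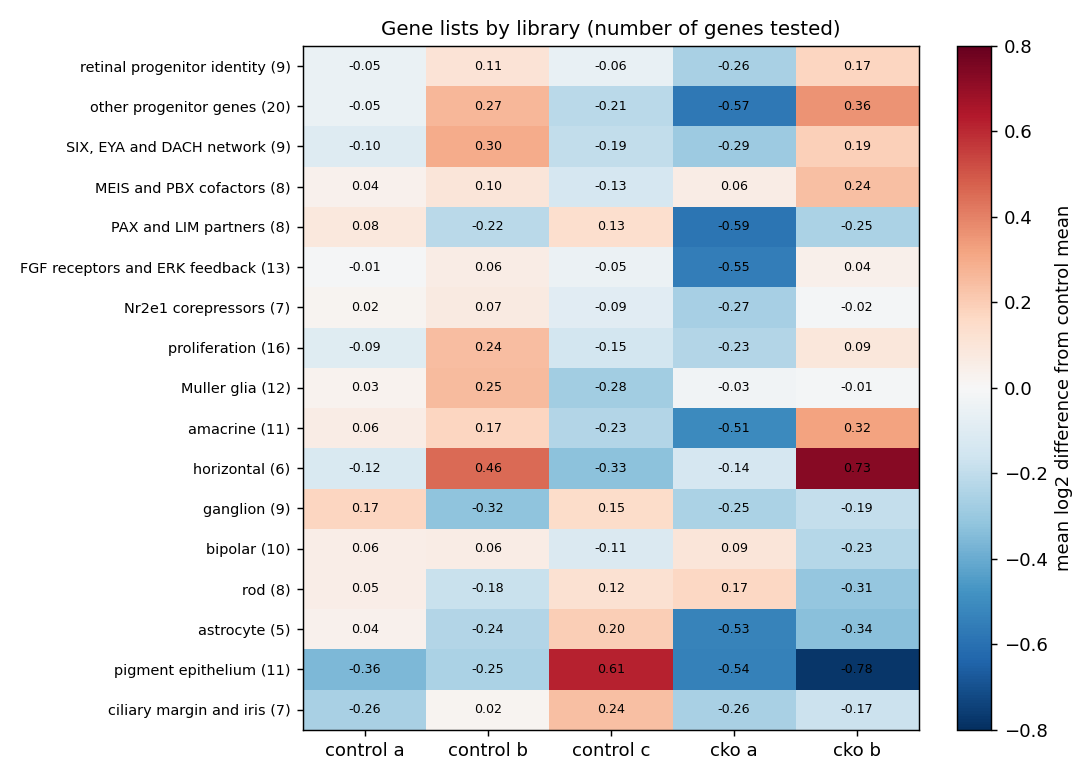
Mean log2 difference from the control mean for each gene list (number of genes tested) in each library; red is above and blue below the controls. The 9 genes described here average -0.26 (cko a) and 0.17 (cko b), and the other progenitor genes -0.57 and 0.36.

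By the root mean square difference of centred log2 CPM over the 5 libraries, the pattern of Six3 was closest to Dab2ip (0.02), Mvb12b (0.02) and Zfp553 (0.03), among 11115 genes compared. That of Lhx2 was closest to Notch2 (0.05), Insm2 (0.05) and Dusp18 (0.07), and that of Nr2e1 to Ptprt (0.05), Fndc1 (0.05) and Kmt2a (0.06). Dapl1 was closest to Nr2f6 (0.06), Mocs3 (0.07) and Nop16 (0.10). Among the 9 genes themselves the closest pairs were Six6 with Meis1 (0.20) and Lhx2 with Nr2e1 (0.20), and the most distant was Pax6 with Dapl1 (0.88). With 5 libraries and so many genes, close matches to any pattern are common, and no test was made of them.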

How the data were processed

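The deposited file is the authors' own gene-by-library table, in raw counts with no normalization; CASAVA, HISAT2, featureCounts and the build mm10 are named per the submitters' processing notes, with no version, annotation release or strand setting given. Of the IDs, 42462 could be given a symbol and 970 could not, with coordinates and lengths taken from GENCODE M21 on GRCm38, which mm10 denotes. Libraries were grouped by title; the chi-square per degree of freedom between libraries was at least 26.7, so none was a copy of another. EdgeR 4.0.16 in R 4.3.3 kept 17039 genes (filterByExpr, minimum count 10, minimum total 15), scaled by TMM and compared the groups with a quasi-likelihood test over all 5 libraries with no covariate, with Benjamini-Hochberg adjustment over all genes and a threshold of 0.05. Standard errors were taken as log2 fold change over root F, and log2 CPM with prior count 2. The test was checked on simulated data. Other settings used DESeq2 1.42.0, limma-voom (limma 3.58.1), other scalings, filters and samples. Named genes are the 9, and for each list any called genes (with more than 3, the 2 with the smallest p in each direction), the most abundant and the one with the smallest p; nearest patterns are given for genes spanning at least 1 log2 unit, among genes of at least 5 CPM. Hes1, Gas1, Spry2, Fgfr3, Dach2, Sox2, Notch1, Gm28528 and the other overlapping genes were added after their values were seen. The 9 genes and the lists were chosen with earlier results of these data known. Promoter windows are RefSeq's on GRCm38.p6. Results of 1 gene that the naming rule selects are left out.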

Additional observations from a re-analysis of the deposited data

How the results depend on the processing

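The count of the 9 genes called stayed at 0 in either direction under every setting tried except 1: with no low-count filter 1 gene, Dapl1, was called lower. Over all genes edgeR called 17, and this count was 262 with no low-count filter, 85 with DESeq2, 11 with library totals, 11 at an adjusted p under 0.01 and 0 in edgeR with genes of other tissues removed (1816 at an unadjusted p under 0.05). With the title's letter as a replicate block it was 39. The deviations of the a libraries correlated at -0.01 and those of the b libraries at 0.15. With 2 cko libraries, the deviations of cko a are those of cko b with the sign reversed. These correlations therefore cannot tell whether a shared letter means a shared batch. Leaving out 1 library gave 0 to 45 genes (0 without cko b, with 2210 at an unadjusted p under 0.05, and 45 without control b) and a median log2 of the 9 genes from -0.36 to 0.17, against 0.05. With 1 cko library left, that library is assumed to vary like the controls. Signs turned under the block for Rax (-0.036), Nr2e1 (-0.012) and Prox1 (-0.13), with library totals for Spred1 (0.0030), and after removal of the GC and length trend for Six6 (-0.075), Meis1 (-0.073), Prox1 (-0.21) and Pdgfra (-0.020). Leaving out 1 library turned signs within -0.16 to 0.23 for Rax, -0.49 to 0.76 for Lhx2, -0.94 to 0.17 for Six3, -0.023 to 0.11 for Six6, -0.36 to 0.67 for Nr2e1, -0.22 to 0.078 for Spred1, -0.23 to 0.23 for Prox1 and -0.31 to 0.049 for Pax6os1. The cause of these turns was not tested. With 2 cko libraries the 95% intervals left folds of 0.539 to 1.27 for Six3 and 0.743 to 1.94 for Lhx2 unexcluded.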

Other observations

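Retinal lists outside the progenitor comparison also gave 0 calls in edgeR, DESeq2 and limma-voom. Rod genes had a median log2 of -0.10, with Gnat1, the rod transducin, at 0.60 (SE 0.18; edgeR adjusted p = 0.430) and Sag at -0.67. Bipolar genes had a median of -0.12, with Otx2 at 0.46 and Scgn at -1.15, ganglion cell genes -0.24, with Nefl at 0.35 and Rbpms at -0.74, and astrocyte genes -0.29, with Pax2 at -1.30 and Pdgfra at 0.19. Genes of the ciliary margin and iris had a median of -0.28, with Cdh2 at 0.55 and Bmp4 at -1.51. Without cko b the rod median was 0.16 and the bipolar median 0.14, and without cko a they were -0.40 and -0.20. Leaving out 1 library in turn gave medians of -0.45 to -0.12 for ganglion cell, -0.47 to -0.12 for astrocyte and -0.40 to -0.07 for ciliary margin genes. In these 5 lists 1 of 8, 3 of 10, 1 of 9, 0 of 5 and 1 of 7 members had an unadjusted p under 0.05, against 10.8% of all genes. Lists of tissues around the retina were lower. The median log2 was -4.24 for lens genes (Cryge -4.65, Crybb1 -4.86, Cryaa -4.47). Of the 20 lens genes tested, 0 had a log2 value above 0, against 49.1% of all genes tested. EdgeR called 15 of them lower, out of 16 genes called lower over the whole table (0.0939% of all tested). The median was -1.93 for blood (Hba-a1 -2.23, Slc4a1 -2.93), -1.50 for muscle (Acta1 -1.96, Tnnt3 -4.71) and -1.63 for connective tissue (Col1a1 -2.09, Col1a2 -1.93). In the blood, muscle and connective tissue lists 0 members passed edgeR, and DESeq2 called 2, 3 and 1, beside 85 of 16195 genes over all. The same lists had 6 of 6, 6 of 7 and 3 of 5 members lower at an unadjusted p under 0.05, against 5.36% of all genes. Without control c the muscle median was -0.97 and that of connective tissue -0.85, and without cko a that of blood was -3.04. Pmel, the pigment epithelium gene with the highest level and the smallest p, had a log2 value of -1.24.

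Gm27427, a small RNA gene annotated inside Six3 on the same strand, had 3, 4 and 5 reads in the controls, then 3 (cko a) and 28 (cko b), and did not pass the low-count filter. It was named after its values had been seen. Its span, 85619225 to 85619417, overlaps that of Gm28528, which starts at 85619326. With no strand setting given, reads of Gm27427 and Gm28528 cannot be told apart there.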
